A study of Mus musculus with 6 samples.

Results

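Slc7a11, Srxn1, Nqo1, Gclc, Gclm, Gsr, Txnrd1, Prdx1, Nfe2l2 and Keap1 were read in myeloid cells of the mouse heart and spleen after acute myocardial infarction (AMI). They encode NRF2, its inhibitor KEAP1 and 8 targets of NRF2 in the glutathione and thioredoxin systems. A probe belonged to the set where the gene name in the scanner file was a listed gene, which gave 10 genes, of the 28312 named on the arrays, on 12 of 39429 probes. The study held 6 single-colour microarrays, each of 1 sample: heart 1, heart 2 and heart 4 held cells of the infarcted left ventricle, and spleen 1, spleen 2 and spleen 4 held spleen cells. All 6 samples came from wild-type C57BL/6N mice 3 days after AMI, and no uninfarcted mouse was analysed here, so the comparison is between tissues after the same injury. The flow sort took cells with much CD45 and CD11b on their surface and with little B220 (a B cell antigen), Thy-1.2 (T cells), NK-1.1 and DX5 (natural killer cells) or Ly6G (neutrophils). Each spleen and each ventricle was analysed on its own, but whether equal numbers in the 2 tissues mark 1 animal is not stated in the labels, and ages are not given in the sources used here.

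NRF2, the product of Nfe2l2, is a transcription factor that KEAP1 binds in the cytosol and presents to a ubiquitin ligase for destruction. Oxidants and electrophiles modify cysteines of KEAP1, NRF2 then accumulates, and with a small MAF partner it binds antioxidant response elements near genes that make glutathione, keep thioredoxin reduced and repair oxidised peroxiredoxins. In macrophages this program is known to accompany the oxidative burst and the uptake of dead cells and red cells. Much of the control lies in the stability of the NRF2 protein, which arrays do not measure.

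The start regions of the genes are shown because NRF2 acts through a short element that can be read in them. The antioxidant response element core was searched for as TGACNNNGC or TGAGNNNGC on both strands of the 250 bases before each RefSeq transcript start (GRCm38.p6). Of the 10 genes, 8 had a sequence, with 10 starts between them, and Gclc and Gsr did not. The core was found before a start of 6 genes, that is in 6 of 10 windows, against 23% of 32851 windows of the same length before all genes (10.2% hold TGACNNNGC and 14.4% hold TGAGNNNGC). Slc7a11, Srxn1, Gclm, Txnrd1, Prdx1 and Nfe2l2 held it, and neither Nqo1 nor Keap1 did in this window. In the sequences, which run 5′ to 3′ on the strand of the gene and end at the base before the start, capitals mark these cores and, for Slc7a11, also TGATGCAA. TGATGCAA is a form of the element bound by ATF4, the amino acid stress factor that also acts on Slc7a11. It was chosen with the Slc7a11 sequence in view and occurs in 0.791% of the 32851 windows.
Slc7a11 (chr3:50443614-50443863, minus strand): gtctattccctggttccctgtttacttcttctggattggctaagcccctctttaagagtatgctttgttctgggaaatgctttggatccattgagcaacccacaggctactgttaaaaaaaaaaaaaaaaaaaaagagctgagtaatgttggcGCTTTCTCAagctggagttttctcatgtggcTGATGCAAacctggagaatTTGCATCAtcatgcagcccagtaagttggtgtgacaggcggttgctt
Srxn1 (chr2:152105274-152105523, plus strand): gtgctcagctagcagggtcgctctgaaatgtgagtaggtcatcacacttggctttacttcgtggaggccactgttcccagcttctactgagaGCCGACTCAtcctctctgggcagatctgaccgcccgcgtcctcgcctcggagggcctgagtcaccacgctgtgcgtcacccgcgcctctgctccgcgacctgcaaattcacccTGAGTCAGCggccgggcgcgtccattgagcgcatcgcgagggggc
Gclm (chr3:122245307-122245556, plus strand): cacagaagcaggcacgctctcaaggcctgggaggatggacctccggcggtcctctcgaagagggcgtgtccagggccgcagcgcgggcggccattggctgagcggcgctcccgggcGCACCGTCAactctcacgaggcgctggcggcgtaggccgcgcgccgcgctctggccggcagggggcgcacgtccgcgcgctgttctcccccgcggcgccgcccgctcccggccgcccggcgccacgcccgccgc
Txnrd1, start 2 of 3 (chr10:82858956-82859205, plus strand): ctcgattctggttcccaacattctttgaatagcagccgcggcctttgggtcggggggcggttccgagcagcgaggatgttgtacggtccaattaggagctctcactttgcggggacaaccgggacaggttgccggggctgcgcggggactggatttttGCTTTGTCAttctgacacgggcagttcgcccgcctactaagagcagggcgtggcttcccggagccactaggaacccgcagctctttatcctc
Prdx1 (chr4:116685349-116685598, plus strand): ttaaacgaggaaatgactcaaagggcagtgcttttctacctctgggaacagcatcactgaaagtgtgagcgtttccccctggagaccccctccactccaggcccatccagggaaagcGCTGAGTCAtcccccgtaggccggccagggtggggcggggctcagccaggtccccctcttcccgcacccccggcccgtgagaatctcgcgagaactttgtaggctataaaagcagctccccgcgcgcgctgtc
Nfe2l2 (chr2:75704664-75704913, minus strand): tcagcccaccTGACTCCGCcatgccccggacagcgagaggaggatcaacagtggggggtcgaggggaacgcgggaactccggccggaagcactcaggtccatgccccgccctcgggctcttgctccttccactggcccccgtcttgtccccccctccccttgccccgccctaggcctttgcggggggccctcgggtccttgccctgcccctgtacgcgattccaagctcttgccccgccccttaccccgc

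Srxn1 held 2 cores, TGAGTCAGC at 45 to 37 bases before the start and TGAGTCGGC, on the opposite strand, at 158 to 150 bases. Slc7a11 held TGAGAAAGC on the opposite strand at 97 to 89 bases, and closer to the start 2 copies of TGATGCAA in opposite orientation, at 66 to 59 and 47 to 40 bases. The core of Prdx1 was TGACTCAGC at 133 to 125 bases, that of Gclm TGACGGTGC at 134 to 126 bases and that of Txnrd1 TGACAAAGC at 92 to 84 bases, all on the opposite strand. The core of Nfe2l2, TGACTCCGC, lay far from its start, at 240 to 232 bases. AP-1, the FOS and JUN factor, binds TGACTCA, and this heptamer overlapped a core in Srxn1 and Prdx1 and was present in 4.46% of all windows. A match describes letters only, and enhancers outside these windows were not analysed here.

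Levels are log2 of the processed signal relative to the 75th percentile of the same array, so that 0 is the brightness of the probe at that percentile. Probes differ in brightness for the same RNA, so levels of different genes are not compared. Each fold change is the log2 level in heart less that in spleen, given with its standard error (SE) from limma. A gene said to rise or fall was higher or lower in heart than in spleen, and no change over time was measured. A gene was called where its p, adjusted by Benjamini-Hochberg over 16365 tested genes, was under 0.05. By this rule 5 of the 9 tested members were called higher in heart, against 9.04% of all tested genes, and 0 were called lower, against 6.46%. At an unadjusted p under 0.05 limma gave 6 members higher and 0 lower, and 5238 of all tested genes in either direction. The median fold change was 1.42 over the 9 tested members and 0.11 over all tested genes. Those called were Slc7a11, Srxn1, Txnrd1, Prdx1 and Nfe2l2. Slc7a11 was tested only because it was well above background in heart, so that it had to differ. With only probes well above background on all 6 arrays, limma called 4 of 8 members and 1330 of 14679 genes higher. The members were chosen with earlier results of these data known, so their share of calls is no independent evidence. Nqo1 was not well above background on all 3 arrays of either tissue, so it was not tested. The 6 members whose tissues did not overlap were these 5 and Gclc, all with every heart value higher, which held for 24.6% of all tested genes.

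**Figure D1:**
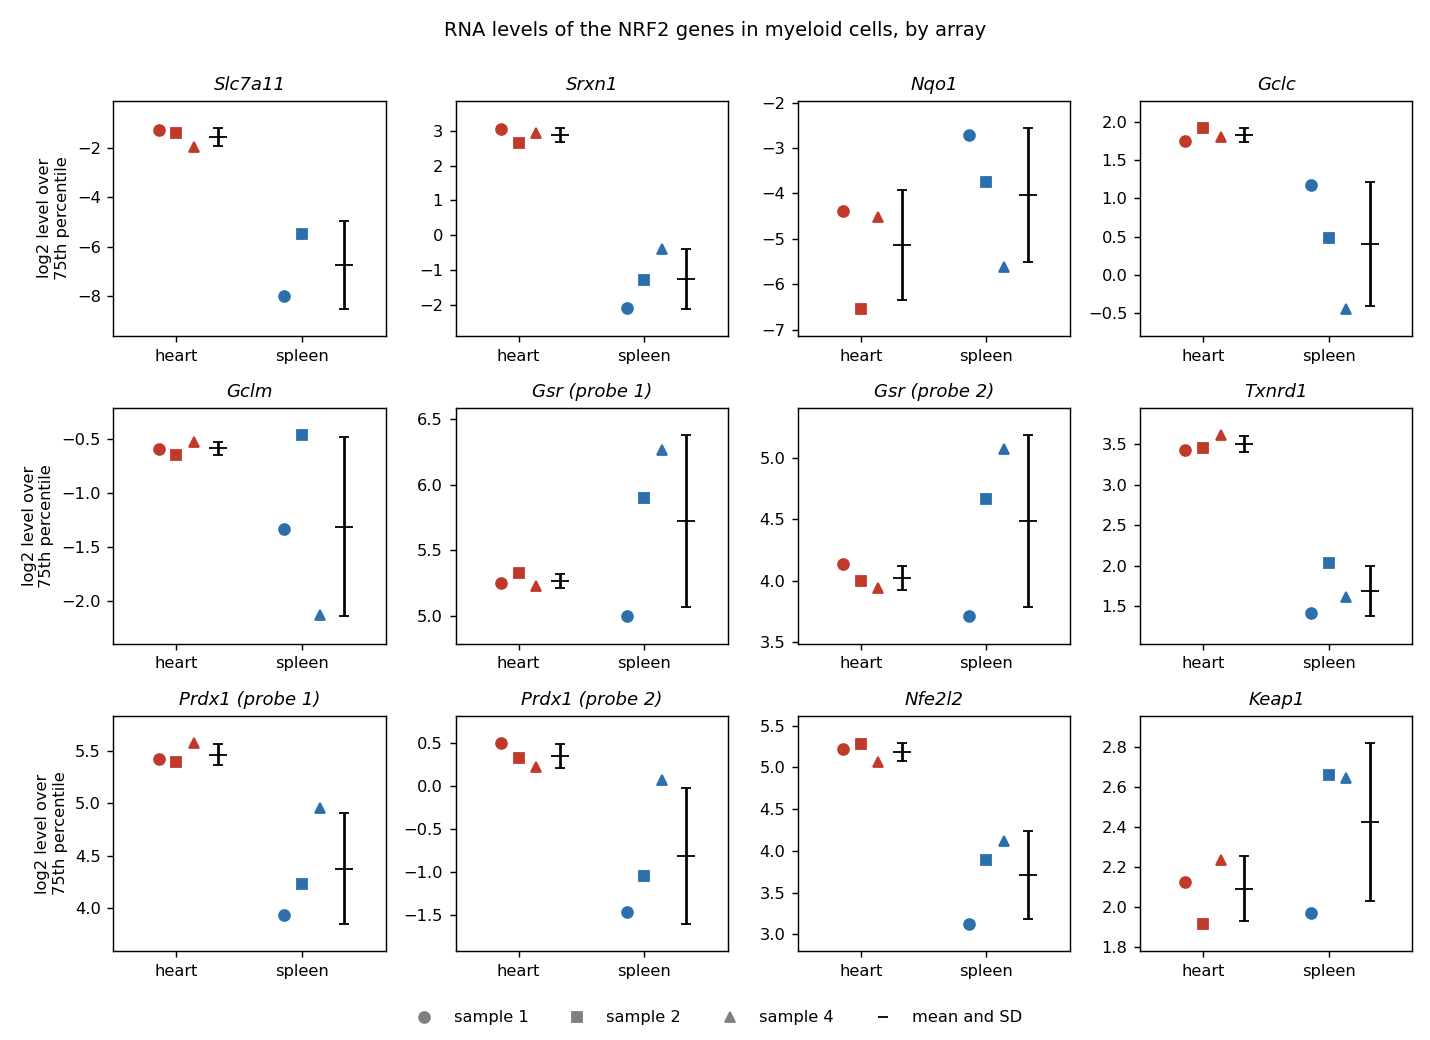
Log2 level over the array's 75th percentile (y axis, scaled separately in each panel) of the 12 probes in each heart (red) and spleen (blue) sample. Symbols mark the sample number and bars the mean and SD; Slc7a11 has no usable spot in spleen 4. The heart values of Srxn1, Txnrd1, Prdx1 and Nfe2l2 lie above all their spleen values, and those of Gclm, Gsr, Keap1 and Nqo1 do not part from spleen.

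The sorted cells carried myeloid RNA in both tissues, but other marker lists differed between them. All 10 myeloid markers with a probe were well above background on every array. Ptprc and Itgam, which encode the sorted antigens CD45 and CD11b, had fold changes of -0.11 and 0.04 and were not called. Of the 10 myeloid markers, 3 were called higher in heart by limma, with a median fold change of 1.14. They were Cd14, a lipopolysaccharide co-receptor (5.48, adjusted p = 0.00151), Mertk, a receptor for the uptake of dead cells (3.70, adjusted p = 0.0261), and Fcgr1, a high-affinity Fc receptor (2.25, adjusted p = 0.0384). Summed levels, with the 75th percentile as 1, were 497 to 567 in heart and 175 to 375 in spleen for myeloid markers. Each sum adds probes of unlike brightness, so it follows its brightest genes and is not a share of cells. In the myeloid sum, Cd14 had levels of 7.31 to 7.38 in heart and 1.09 to 2.79 in spleen. For neutrophil markers they were 69.3 to 81.9 in heart and 546 to 1291 in spleen. Of the 13 neutrophil genes, 8 were called lower in heart, although Ly6G staining had been selected against. Fibroblast markers summed to 7.92 to 9.17 in heart and to 11.8, 0.622 and 0.210 in spleen 1, spleen 2 and spleen 4, and 6 of 7 tested were called higher in heart. Pdgfra stayed below the detection call on all 6 arrays, and most of the sum in spleen 1 was Thy1, which T cells also express. Pdpn was the brightest of the list in every heart sample, at 2.76, 1.69 and 2.59, and its cell source was not tested. Cardiomyocyte markers summed to 0.693 to 1.07 in heart and 0.316 to 0.520 in spleen (3 of 7 called higher). Of the called genes, Actc1 and Mb, and Col3a1 and Mgp of the fibroblast list, passed the detection call on 0 spleen arrays. They were tested only through heart, so that they had to differ. Col1a1, Dcn, Pdpn and Myl2, and Cdh5 and Cldn5 of the endothelial list, passed it on only 1 or 2 spleen arrays. These too were tested only through heart, so the counts of calls in these lists lean on the filter. In the other direction, Ngp of the neutrophil list passed on 1 heart array and was tested only through spleen. Endothelial markers summed to 2.65 to 3.38 and 2.24 to 2.67 (2 of 6 called higher), with Tek, Tie1 and Emcn below the detection call on all 6 arrays. Kdr, which was not called, was the brightest of this list on every array. Spleen 1 stood apart for B cell markers (97.7, against 3.34 to 3.98 in the other spleens and 0.753 to 1.24 in heart) and for T and natural killer cell markers (75.6, against 4.15 to 13.9 and 2.70 to 2.91). It was also highest for erythroid markers (136, against 7.08 to 17.4 and 7.72 to 36.6). In bulk samples, fewer cells of a type and less RNA per cell cannot be told apart, and the part of these other cells in the changes below was not tested. Results without spleen 1 are given below for some genes. Without it the median fold change was 1.18 over the members and 0.04 over all tested genes. The fold change was then 1.18 for Nfe2l2, 0.87 for Prdx1 and -0.56 for Keap1. At an unadjusted p under 0.05 limma then gave 6 members higher and 2 lower, and 5517 of all genes.

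**Figure D2:**
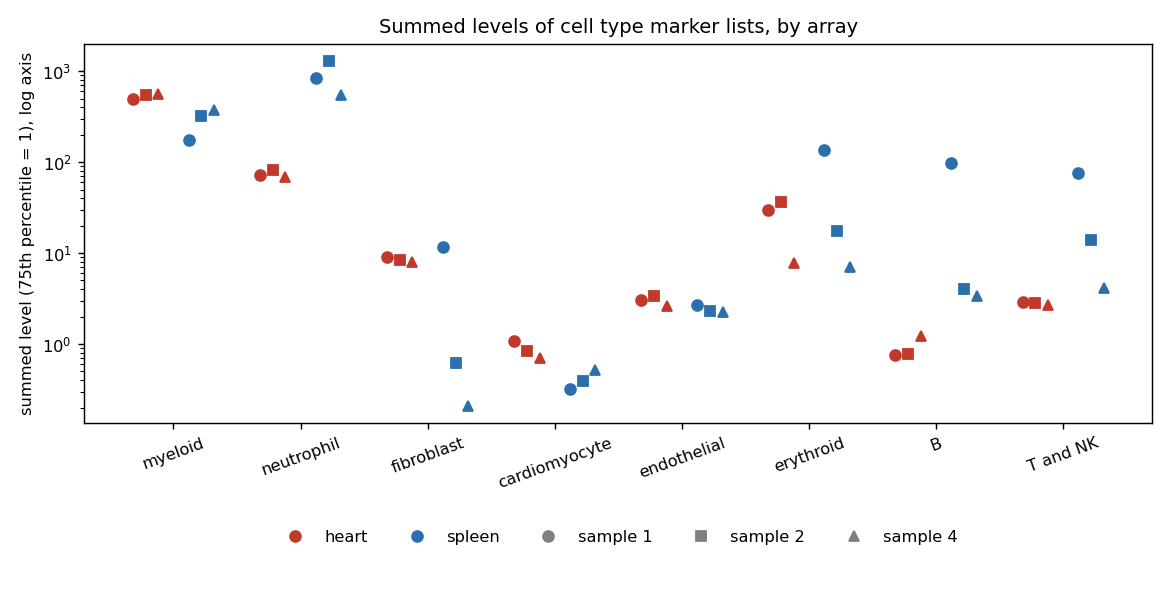
Summed level of each cell type marker list (y axis, log scale, 75th percentile of the array = 1) in the heart (red) and spleen (blue) samples. Neutrophil markers are higher in all 3 spleens, and spleen 1 alone is high for B cell and T and natural killer cell markers.

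The cystine importer subunit was higher in heart, and in spleen it was mostly below detection. Slc7a11 encodes xCT, which brings in cystine for glutathione synthesis in exchange for glutamate (probe at mm9 chr3:50169700-50169759). Its level was -1.27 in heart 1, -1.36 in heart 2 and -1.96 in heart 4, and -8.01 in spleen 1 and -5.48 in spleen 2, where it was not well above background. The spot of spleen 4 was marked as an outlier by the scanner program and left out of the fit. On the intensity scale these were 667, 605 and 460 in heart against 7.71 and 37.6 in spleen. All 3 heart values lay above both usable spleen values. The hearts averaged -1.53 ± 0.37 (SD, n = 3) and the 2 usable spleens -6.74 ± 1.79 (SD, n = 2), with a fitted fold change of 5.21 ± 0.75 (SE) and an adjusted p of 0.0147 from limma. Each dim spleen value was then held at the detection floor of its array, or at its own level where higher. This gave a bound of 17.4-fold higher in heart for the 2 usable spleens, and 15.4-fold without spleen 1. The bound, 4.12 in log2, depends on the processed signal, as normexp background correction gave a smaller fold change of 2.95.

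The outlier spot itself was brighter than those of the other spleens. It read 120 intensity units, a level of -3.92, and was well above background. Heart 1 exceeded it by 2.65 and heart 4 by 1.96. With outlier spots kept, an alternative chosen after seeing the data, the fold change was 4.27 and the adjusted p was 0.0331 by limma, and the bound no longer applies because 1 spleen array then measured the gene. The size depended on the spleen array and the background correction: it was 3.95 without spleen 1, 6.48 without spleen 2 and 2.95 with normexp background correction, each called.

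Slc3a2, which encodes the heavy chain that holds xCT in the membrane and also serves other amino acid carriers, was higher in heart as well. Its level was 5.44, 5.27 and 5.35 in heart 1, heart 2 and heart 4, and 2.84, 2.16 and 2.57 in spleen 1, spleen 2 and spleen 4. The tissues did not overlap, and the fold change was 2.83 ± 0.22 (SE, adjusted p = 0.00161, limma). The call held in all 6 fits that left out 1 array.

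The 2 subunits of glutamate-cysteine ligase, the rate-limiting enzyme of glutathione synthesis, were not called. Gclc, the catalytic subunit (mm9 chr9:77641296-77641355), had levels of 1.75, 1.93 and 1.80 in heart 1, heart 2 and heart 4, and 1.18, 0.48 and -0.45 in spleen 1, spleen 2 and spleen 4. Every heart value was above every spleen value, but the spleens spread over more than a log2 unit. Heart exceeded spleen by 1.42 ± 0.40 (SE, 95% interval 0.46 to 2.39), with an adjusted p of 0.0609 from limma. Gclc fell on the other side of the threshold without spleen 1 (adjusted p = 0.0181), without spleen 4 (0.0383), with arrays scaled to their median (0.0227) and with array weights (0.0333), all in the limma fit.

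Gclm, the modifier subunit that makes the ligase more efficient (its probe spans 2636 bases of the genome, mm9 chr3:121962174-121964809), had levels of -0.59, -0.65 and -0.52 in heart and -1.34, -0.47 and -2.13 in spleen. Spleen 2 lay above all 3 hearts, so the tissues overlapped. Its fold change was 0.72 ± 0.41 (SE, 95% interval -0.26 to 1.70, adjusted p = 0.276, limma).

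Gsr, the reductase that returns oxidised glutathione to its reduced form with NADPH, had 2 neighbouring probes. The brighter probe (mm9 chr8:34808488-34808547) gave 5.25, 5.33 and 5.23 in heart and 5.0, 5.90 and 6.27 in spleen. Spleen 1 lay below the hearts and the other 2 spleens above them. The fold change was -0.45 ± 0.33 (SE, 95% interval -1.26 to 0.35, adjusted p = 0.401, limma), and without spleen 1 it was -0.82 and called lower in heart (adjusted p = 0.0373). The other probe (mm9 chr8:34808413-34808472) gave 4.13, 3.99 and 3.94 in heart and 3.71, 4.67 and 5.07 in spleen, with a fold change of -0.46 ± 0.36 (SE, adjusted p = 0.428 over probes, limma). Both probes thus gave the same order of spleens.

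Among the other 33 glutathione genes, 29 were tested, 2 were called higher and 4 lower in heart, with a median fold change of -0.06. Besides Slc3a2, Abcc1 rose, an exporter of glutathione conjugates and oxidised glutathione. The hearts averaged 2.05 ± 0.22 (SD, n = 3) and the spleens 0.32 ± 0.19 (SD, n = 3), a fold change of 1.73 ± 0.20 (SE, adjusted p = 0.00494, limma). Mgst2, Chac1, Gstz1 and Ggt5 fell. Mgst2, a microsomal glutathione transferase that can conjugate leukotriene A, had a mean of 3.70 ± 1.54 (SD, n = 3) over the spleens against -1.92 ± 0.22 (SD, n = 3) over the hearts, a fold change of -5.62 ± 0.72 (SE, adjusted p = 0.00736, limma). Its spleen levels were 3.89, 5.14 and 2.07, and those of the neutrophil marker sum were 847, 1291 and 546, the same order over the 3 spleens. An order over 3 spleens cannot show a link, and a link was not tested. Chac1, which degrades glutathione in the cytosol, passed the detection call on 0 of 3 heart arrays. It was tested only through spleen, so that it had to differ. Its bound was 16.7-fold higher in spleen (adjusted p = 0.0282, limma). Its spleen levels of -0.27, 0.81 and -3.22 differed widely, and the bound was 9.25-fold without spleen 2 and 37.4-fold without spleen 4. The call held in only 1 of the 6 fits that left out an array, without spleen 4. With normexp background correction Chac1 was not called (-3.17, adjusted p = 0.0511, limma).

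Gstz1, a transferase of tyrosine breakdown, had a fold change of -0.87 (adjusted p = 0.0212, limma). Ggt5, a membrane enzyme that cleaves glutathione and leukotriene C, had one of -1.23 (adjusted p = 0.0315, limma). Both calls ended when any heart array was left out. The bright peroxidases were not called: Gpx1, the main cytosolic glutathione peroxidase, had a fold change of 0.16 (95% interval -0.47 to 0.78), and Gpx4, which reduces lipid hydroperoxides, had one of -0.21 (95% interval -0.90 to 0.48).

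In the thioredoxin system, the reductase, a peroxiredoxin and the enzyme that repairs peroxiredoxins were called higher in heart. Txnrd1, the cytosolic selenoenzyme that reduces thioredoxin with NADPH (mm9 chr10:82360230-82360289), had levels of 3.43, 3.46 and 3.61 in heart 1, heart 2 and heart 4, and 1.42, 2.03 and 1.61 in spleen 1, spleen 2 and spleen 4. The tissues were well apart, with the lowest heart above the highest spleen by more than a log2 unit. Txnrd1 rose by 1.81 ± 0.21 (SE, adjusted p = 0.00524, limma), or 3.50-fold.

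Srxn1, sulfiredoxin, restores peroxiredoxins whose active cysteine has been overoxidised (mm9 chr2:151937009-151937068). Its levels were 3.06, 2.65 and 2.94 in heart and -2.11, -1.28 and -0.40 in spleen, and it was well above background on all 6 arrays. The hearts lay close together and the spleens spread, with spleen 4 nearest to the hearts and still 3.33 below heart 4. The fold change was 4.15 ± 0.43 (SE, 95% interval 3.12 to 5.18, adjusted p = 0.00351, limma), or 17.7-fold. It had the highest fold change of the members measured on all 6 arrays.

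Prdx1, a peroxiredoxin that reduces hydrogen peroxide with thioredoxin, had 2 probes that both read higher in every heart sample. The brighter (mm9 chr4:116371818-116371877) gave 5.43, 5.40 and 5.58 in heart and 3.93, 4.23 and 4.96 in spleen, with no overlap. The fold change was 1.09 ± 0.29 (SE), and its adjusted p of 0.0497 from limma lay at the threshold. The other probe (mm9 chr4:116372422-116372481) gave 0.50, 0.33 and 0.23 in heart and -1.47, -1.04 and 0.07 in spleen. That probe was not called (1.17 ± 0.40, SE, adjusted p = 0.102 over 21801 probes, of which 8.94% were called higher, limma), although its tissues did not overlap either. The call on Prdx1 ended in 15 of 22 alternatives, among them quantile normalization (0.70, adjusted p = 0.0732, limma), where the fold change was also smaller, and outlier spots kept (adjusted p = 0.0501). The adjusted p was between 0.00556 and 0.574 over the alternatives.

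Of the other 17 thioredoxin genes, 16 were tested, 1 was called higher and 2 lower, with a median fold change of 0.09. Prdx6, the peroxiredoxin that works with glutathione in place of thioredoxin, stood at 4.90 ± 0.11 (SD, n = 3) in heart against 3.82 ± 0.42 (SD, n = 3) in spleen and rose by 1.08 ± 0.25 (SE, adjusted p = 0.0343, limma). Txnip, which encodes the protein that binds and inhibits thioredoxin and limits glucose uptake, was lower in heart. Its levels were 1.61, 1.23 and 1.61 in heart and 3.25, 3.00 and 3.34 in spleen, with no overlap and a fold change of -1.71 ± 0.20 (SE, adjusted p = 0.00494, limma). Msrb2, a mitochondrial methionine sulfoxide reductase, had a fold change of -1.63 (adjusted p = 0.0426, limma), which was called in 1 of the 6 fits without an array, against 3 of 6 for Prdx6 and 6 of 6 for Txnip. Txn1, cytosolic thioredoxin itself, was not called (0.17, 95% interval -0.50 to 0.83), nor was Msrb1, the selenoprotein methionine sulfoxide reductase (0.05, 95% interval -0.68 to 0.77).

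Nqo1, a quinone reductase often used as a readout of NRF2 activity, did not pass the detection call on all 3 arrays of either tissue. The probe (mm9 chr8:109912440-109912499) was well above background on 2 of 3 heart arrays and 2 of 3 spleen arrays, so it was not tested. Its levels were -4.38, -6.54 and -4.51 in heart and -2.71, -3.76 and -5.62 in spleen, or 77.2, 16.7 and 78.3 intensity units in heart and 304, 124 and 36.7 in spleen. The tissues overlapped, and the highest values were those of spleen 1 and spleen 2.

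The message for NRF2 was called higher in heart and that for its inhibitor was not called. Nfe2l2 (mm9 chr2:75513771-75513830) had levels of 5.22, 5.28 and 5.07 in heart 1, heart 2 and heart 4, and 3.12, 3.89 and 4.12 in spleen 1, spleen 2 and spleen 4. No spleen reached a heart value. Nfe2l2 rose by 1.48 ± 0.28 (SE, 95% interval 0.79 to 2.16, adjusted p = 0.0214, limma), or 2.78-fold. Keap1 (a probe across an intron, mm9 chr9:21035292-21035732) had levels of 2.12, 1.91 and 2.23 in heart and 1.97, 2.66 and 2.65 in spleen. Spleen 1 lay among the hearts and the other 2 spleens above them, and the fold change was -0.33 ± 0.25 (SE, 95% interval -0.93 to 0.26, adjusted p = 0.400, limma).

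Of 18 further partners and regulators of NRF2, 16 were tested, 1 was called in each direction and the median fold change was 0.49. Maff, a small MAF protein that pairs with NRF2 and with other CNC factors, had levels of 2.94, 2.72 and 2.96 in heart and -0.50, -5.31 and -4.91 in spleen. Spleen 1 lay far above the other spleens and still below every heart. The fold change was 6.45 ± 1.22 (SE, adjusted p = 0.0208, limma), 7.98 without spleen 1, and it was called in 2 of the 6 fits without an array. Nfe2, the CNC factor of erythroid cells and megakaryocytes, was lower in heart (0.77 ± 0.21, SD, n = 3, against 3.54 ± 0.73, SD, n = 3; fold change -2.77 ± 0.38, SE, adjusted p = 0.00858, limma). Its call ended without heart 1 or heart 2. Mafg, another small MAF (0.89, 95% interval -0.06 to 1.85), and Rbx1, the RING subunit of the KEAP1 ligase (0.40, 95% interval -0.13 to 0.92), were not called.

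NRF2 targets outside these systems moved in both directions. Of 23 listed, 21 were tested, 4 were called higher and 2 lower, and the median fold change was 0.08. Hmox1, haem oxygenase, which opens haem and releases iron, had levels of 5.93, 5.65 and 5.78 in heart and 3.12, 2.83 and 3.57 in spleen. No values overlapped, the fold change was 2.61 ± 0.23 (SE, adjusted p = 0.0023, limma), and it was called in 6 of 6 fits without an array. Blvra, the next enzyme of haem breakdown, rose by 1.28 ± 0.32 (SE, adjusted p = 0.0434, limma), and Fth1, the ferritin heavy chain that stores iron, by 1.06 ± 0.16 (SE, adjusted p = 0.0125, limma). Akr1b8, an aldo-keto reductase, rose by 1.67 ± 0.30 (SE, adjusted p = 0.0179, limma).

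Osgin1, a gene of the oxidative stress response, had a fold change of -0.84 ± 0.18 (SE, adjusted p = 0.0273, limma), and Cat, catalase of the peroxisome, one of -0.80 ± 0.16 (SE, adjusted p = 0.0253, limma). Each of the 5 calls other than Hmox1 ended when any of the 3 heart arrays was left out, and those on Blvra and Cat also without spleen 2. The ferritin light chain Ftl1 (0.48, 95% interval 0.02 to 0.94) and Taldo1, transaldolase of the pentose phosphate pathway (0.20, 95% interval -0.44 to 0.83), were not called.

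Because Slc7a11 is also a target of ATF4, 12 genes of ATF4 and of cysteine and serine supply were read. Of these, 11 were tested and 1 was called, higher in heart, with a median fold change of 0.14. The called gene was Mat2a, which makes the methyl donor S-adenosylmethionine (0.86 ± 0.17, SE, adjusted p = 0.0244, limma), and its call ended when any heart array or spleen 2 was left out. Atf4 had levels of 5.56, 5.41 and 5.64 in heart and 5.30, 4.87 and 4.47 in spleen and was not called (0.66 ± 0.25, SE, adjusted p = 0.125, limma), and Psat1, an enzyme of serine synthesis, was not called either (-0.24, 95% interval -0.88 to 0.39). Over all 5 lists, 93 of 103 genes were tested, 9 were called higher and 9 lower, against the 9.04% and 6.46% of all tested genes that were called in those directions.

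**Figure D3:**
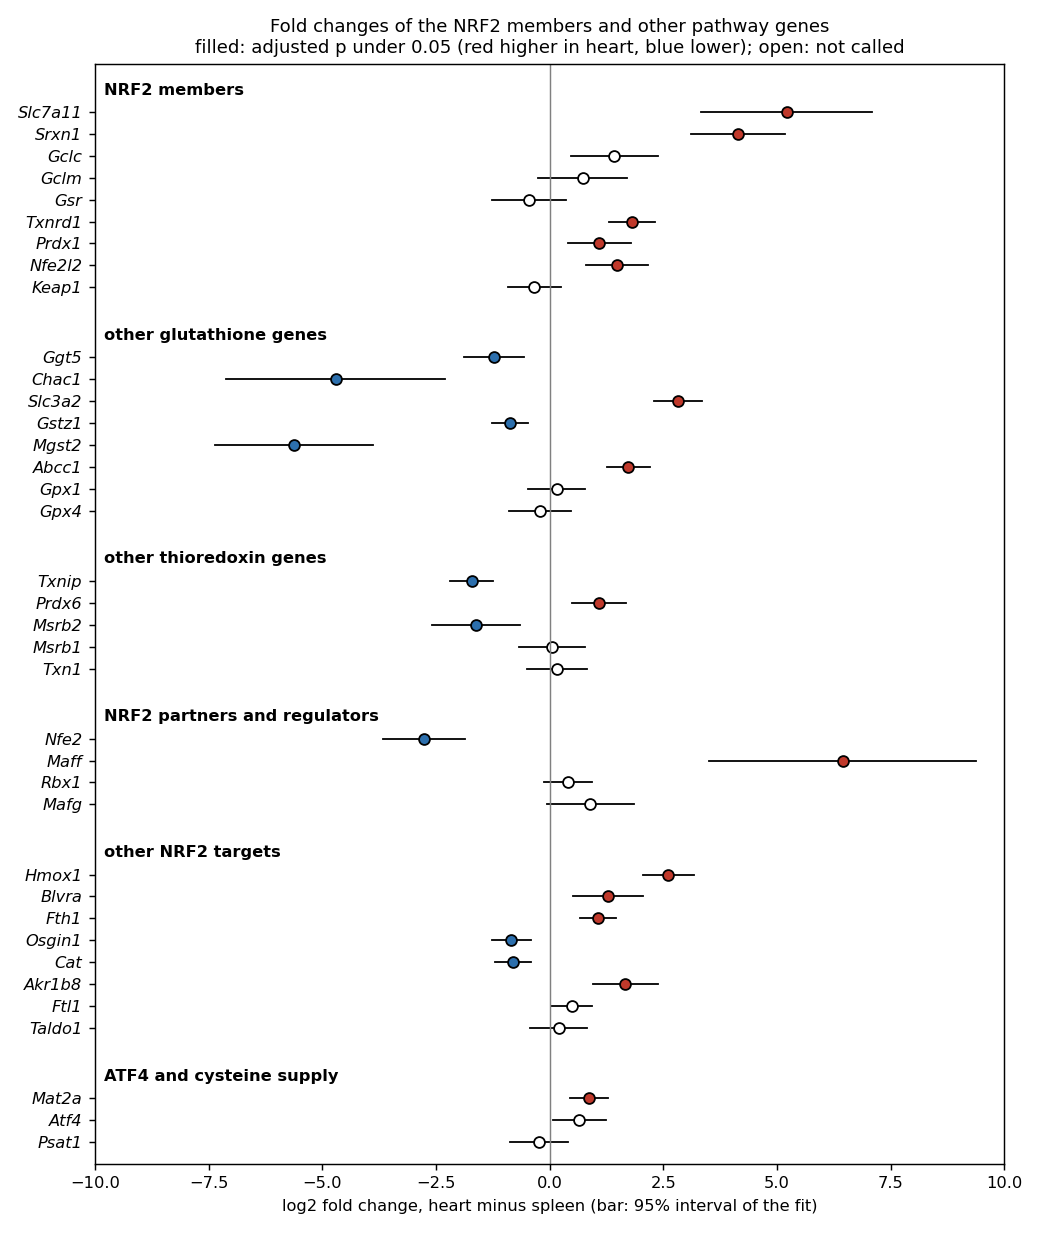
Log2 fold change, heart minus spleen, with its 95% interval from limma, for the 9 tested members and the other pathway genes named in the text; filled points were called (red higher, blue lower in heart). Slc7a11, Srxn1, Slc3a2 and Maff have the widest rises, and Chac1 and Mgst2 the widest falls; the fits of Slc7a11 and Chac1 rest on a tissue where they were not well above background.

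The hearts agreed more closely than the spleens for these genes, as for most genes on the arrays. The SD of the spleen samples was larger than that of the hearts for 9 of 9 tested members, against 84.1% of all tested genes. The median SD was 0.0963 in heart and 0.656 in spleen for the members, and 0.144 and 0.404 for all tested genes. The spleens did not keep the same order over the members. Spleen 4 was nearest to the hearts for Srxn1, Prdx1 and Nfe2l2, and it was the spleen farthest from them for Gclc, Gclm and Gsr. Over all tested genes, spleen 4 was the nearest for 40.2%.

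The arrays lay on 3 slides, and the sample titles carry 2 dates. Slide 2 held heart 1 and spleen 4, slide 1 spleen 1 and spleen 2, and slide 3 heart 2 and heart 4. Within slide 2 the difference between heart 1 and spleen 4 was 3.45 for Srxn1, 1.82 for Txnrd1, 1.10 for Nfe2l2 and 0.47 for Prdx1. For the members not called it was 2.20 for Gclc, 1.54 for Gclm, -1.02 for Gsr and -0.52 for Keap1. Every sign was that of the whole comparison. Of all 1480 genes called higher, 1476 were also higher in heart 1 than in spleen 4. Prdx1 was nearer to 0 than its pooled value of 1.09, and Gclc, Gclm and Gsr were farther from 0. Slc7a11 had no usable spot in spleen 4.

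Between the 2 samples of each tissue with the earlier date the fold change was 5.43 for Slc7a11, 4.55 for Srxn1, 1.72 for Txnrd1, 1.74 for Nfe2l2 and 1.33 for Prdx1. The corresponding values were 1.01 for Gclc, 0.28 for Gclm, -0.16 for Gsr and -0.30 for Keap1. The later date held heart 4 and spleen 4 alone, which differed by 3.33 for Srxn1, 2.00 for Txnrd1, 0.95 for Nfe2l2 and 0.62 for Prdx1, and by 2.25, 1.60, -1.04 and -0.41 for Gclc, Gclm, Gsr and Keap1. All signs were again those of the whole comparison. These subsets come from the arrays of that comparison, and spleen 4 served both on slide 2 and at the later date. Of all 1480 genes called higher, 1476 were also higher in heart 4 than in spleen 4. Agreement in sign within these pairs therefore did not set the called members apart.

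With the slide as a fixed block, limma called 0 members and 92 of all genes. At an unadjusted p under 0.05 it gave 4 members, all higher, and 2837 of all genes. An unmoderated test with its own variance in either tissue called 0 members and 54 of all genes. At an unadjusted p under 0.05 that test gave 3 members and 3284 of all genes. Leaving out a heart array ended the calls on Slc7a11 (adjusted p between 0.0646 and 0.0695), Nfe2l2 (0.0825 to 0.0959) and Prdx1 (0.147 to 0.166) in limma. Srxn1 (0.0237 to 0.0283) and Txnrd1 (0.0376 to 0.0390) remained called in those 3 fits, in which 433 to 498 genes were called in all.

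**Figure D4:**
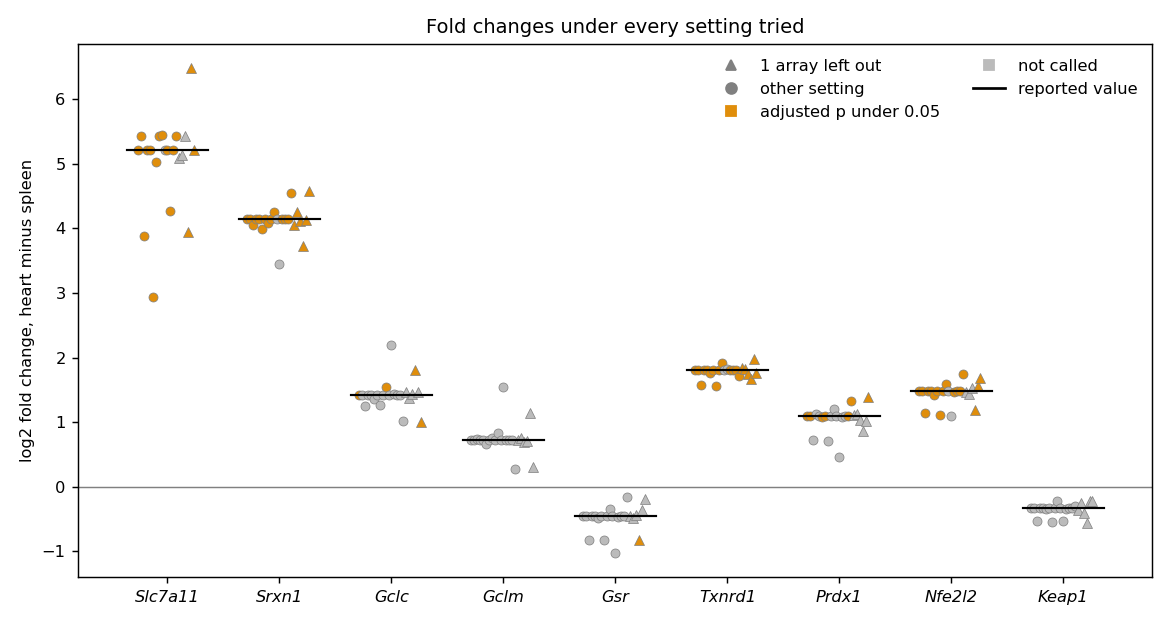
Log2 fold change, heart minus spleen, of the 9 tested members under each alternative (triangles, 1 array left out; circles, other settings), with the reported value as a line; orange points had an adjusted p under 0.05. Srxn1 and Txnrd1 stay called under 20 of 22 settings and Prdx1 under 7 of 22, and no member changes sign.

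For the 3 called members with the largest change among those measured on all 6 arrays, the genes with the most similar pattern were sought among 16148 genes outside the lists. Likeness was the root mean square distance over the 6 log2 levels, each gene centred on its own mean, and it describes 6 arrays only. Nearest to Srxn1 were Rab7b, a small GTPase of late endosomes (distance 0.107), Cdkn1a, the cell cycle inhibitor p21 (0.118), and Sh3pxd2b, an adaptor of podosomes (0.167). Their fold changes were 4.25, 4.08 and 3.85. Nearest to Txnrd1 were Itprid2 (0.0524), Npc1, which exports cholesterol from lysosomes (0.0962), and Hsd17b12, an enzyme of fatty acid elongation (0.107). Nearest to Nfe2l2 were Sgsh, a lysosomal enzyme that degrades heparan sulfate (0.0958), Stx12, a syntaxin of endosomes (0.0989), and Nkd2, a regulator of WNT signalling (0.103).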

How the data were processed

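The authors made the processed signal intensity of each spot in the scanner files with Agilent Feature Extraction 10.7.3.1, with background subtracted and no scaling between arrays, per the file headers. The deposited series table holds log2 values whose differences between arrays matched quantile-normalized log2 signals (lowest r 0.99985 in 15 array pairs, over 19383 probes). Every column had a median of 0, and its baseline per probe is unknown, so it served as an alternative only.

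Control and outlier spots were left out, spots of a probe averaged, and log2 signals set against the 75th percentile of each array (1557 to 1989 intensity units). Of all probes, 52.8% to 63.6% were well above background per array, and 0 spots were saturated. Mean correlations were 0.992 between hearts, 0.950 between spleens and 0.909 between tissues. The 21801 tested probes were called well above background by the scanner program on each of the 3 heart or each of the 3 spleen arrays and had 2 or more usable values in either tissue. The brightest tested probe on average stood for a gene (16365 genes). Names came from RefSeq by accession for 26412 of 39429 probes and from the files otherwise. Probe coordinates are mm9, from the files, and exons or UTRs at those positions were not analysed here.

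R 4.3.3 ran limma 3.58.1 (two-sided moderated test, lmFit then eBayes) and the data.table package (version 1.17.8), after the code was tested on simulated data. Figures used matplotlib 3.10.9 and pandas 2.3.3 in Python 3.11.15. For a bound, each dim array was held at its own level or, if higher, that of the dimmest probe the program called well above background. The number of arrays limits the precision. The members and lists were chosen with earlier results of these data known. Named are all members, every called gene and the 2 brightest uncalled genes of each list, the 3 nearest patterns to 3 members, and markers where a list is described. Alternatives covered scaling, background, filter, probe choice, variance model, slide, date, replicate number and left-out arrays.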

Additional observations from a re-analysis of the deposited data

How the results depend on the processing

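No fold change of a member or of a called pathway gene changed sign under the alternatives run. Counts are of limma calls, 2537 genes in all (1480 higher, 1057 lower), 5 members higher and 0 lower, and 9 other pathway genes in each direction. Quantile normalization and the deposited table each gave 4 members higher and 0 lower, and 7 other pathway genes higher and 12 lower. At an unadjusted p under 0.05 limma gave 6 members higher and 2 lower in each, and 5139 and 5160 of all genes. Scaling to the array median moved the median fold change of all genes from 0.11 to 0.22 and left 5 other pathway genes lower. With no filter on dim probes the counts were 1476 genes (967 higher, 509 lower) and 3 other pathway genes lower. A separate variance per tissue gave 54 genes (45 higher, 9 lower), 0 members and 0 other pathway genes in either direction. At an unadjusted p under 0.05 it gave 9 other pathway genes higher and 9 lower, and 3284 of all genes. The slide as a fixed block gave 92 genes (79 higher, 13 lower), 0 members and 0 other pathway genes in either direction. Unadjusted, it gave 9 other pathway genes higher and 8 lower, and 2837 of all genes. Slc7a11 had no estimate there. Within the earlier date 985 genes were higher, with 5 other pathway genes higher.

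Leaving out 1 array gave 433 to 4024 genes (321 to 2414 higher, 112 to 1610 lower), 2 to 6 members higher, 0 to 1 lower (Gsr, without spleen 1), 3 to 15 other pathway genes higher and 2 to 13 lower. The fewest came without heart 1 and the most genes without spleen 4. Without spleen 1, 15 other pathway genes were higher. Without a heart array, 3 of the 9 higher and 2 to 3 of the 9 lower pathway calls remained; Slc3a2, Abcc1, Hmox1, Txnip and Mgst2 were called in all 6 such fits.

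The replicate block, which pairs samples of the same number, gave 1512 genes (905 higher, 607 lower) and 4 other pathway genes lower. Deviations of same-numbered samples correlated at -0.053 (number 1), 0.040 (number 2) and 0.0091 (number 4), and those of unlike number at -0.072 to 0.047. Such values cannot show whether 2 samples share an animal. The numbers were not taken as pairs because the labels do not say that they mark an animal. Depth is not defined for arrays. Signal near background limits Slc7a11 and Chac1 to bounds, and Nqo1 passed the detection call on too few arrays to be tested.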
